A study of Mus musculus with 12 samples.

Results

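The genes described here build and steer the membrane compartments of the cell: transport vesicles, endosomes, lysosomes and autophagosomes. They were chosen by gene symbol alone, as every gene in the deposited tables whose symbol begins with the family names of the Rab, Arf and Arl GTPases, the Vps proteins, sorting nexins, lysosomal membrane glycoproteins (Lamp), the vacuolar proton pump (Atp6v), the autophagy proteins (Atg, Map1lc3, Gabarap, Sqstm1, Wipi), the Hermansky-Pudlak and BLOC1 proteins, the SNAREs (Stx, Vamp, Snap), and the Sec and coatomer proteins. The rule found 121 genes with 147 transcripts, out of 7902 genes with 10720 transcripts. It matches 296 protein-coding genes of the mouse annotation, so 40.9% of the annotated genes of these names could be examined. By family, the genes in the tables were 25 of 59 Rab GTPases, 12 of 31 SNAREs, 12 of 26 Arf and Arl GTPases, 10 of 23 proton pump subunits, 9 of 18 Atg proteins and 8 of 30 sorting nexins. The default filter on counts left out 3 genes, Rab33a, Sec16b and Hps5, which leaves 118. Rab33a and Sec16b were low throughout. Hps5 had estimated counts of 0, 81.36, 63.73 and 76 in the Ctrl libraries and 0 in every Model library. In M+NSPCC1 it had 0, 0, 0 and 8.97, and its difference was not tested.

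As background, proteins made at the endoplasmic reticulum leave it in vesicles coated with COPII, while COPI coats return material from the Golgi. Rab, Arf and Arl GTPases mark each compartment and recruit the machinery that moves vesicles, and SNAREs on the facing membranes pull them together until they fuse. Cargo taken up from the surface passes through endosomes, where sorting nexins and retromer send it back and the ESCRT complexes sort it towards lysosomes. Lysosomes are acidified by the vacuolar proton pump (V-ATPase) and hold hydrolases, and autophagy delivers the cell's own material to them in vesicles coated with LC3. In skin, the same machinery carries melanosomes, the lysosome-related pigment organelles, and lamellar bodies of the epidermis.

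The samples were mouse skin in 3 groups of 4 libraries each, numbered 01 to 04. Ctrl is control skin, Model is skin of mice in which ageing was induced with D-galactose together with UVA/B light, and M+NSPCC1 is skin of that same model given NSPCC1, a grape seed extract. The labels name no strain, age, dose, duration or skin site. They also do not say whether the libraries of a group stem from different mice, so a p-value here covers only the spread among libraries, which may be technical in part. Values are estimated read counts per gene, scaled to a common library size (CPM) within the deposited genes, and FPKM. The FPKM divide by transcript length and are scaled to the depth of the whole library. Changes in CPM and in FPKM can therefore differ in size.

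Depth ranged from 9717338 to 10952623 estimated counts per library. The deposited tables hold a selected part of the transcriptome, and nearly all of it differed from control skin, so counts of changed genes below are read against that background. Markers of several cell types differed between the groups. All 13 skeletal muscle markers fell in Model against Ctrl, with a summed level of 82570 to 90360 CPM in Ctrl, 4740 to 16010 in Model and 11410 to 17380 in M+NSPCC1. The 14 hair shaft markers measured all rose, and their sum was 13.9 to 149 CPM in Ctrl, 25250 to 42140 in Model and 15130 to 28880 in M+NSPCC1. Library Model 03 stood apart from the other 3 Model libraries, with the highest sums of the 4 for muscle, macrophage, fibroblast, endothelial and sebocyte markers and the lowest for melanocyte, hair shaft and cell cycle markers. Without it, 45 members rose and 57 fell in Model. In whole skin, fewer cells of a type and less RNA per cell cannot be told apart.

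The summed level of the 121 genes depended on the scale. In FPKM it was 4202 ± 61.01 FPKM in Ctrl, 4243 ± 71.8 in Model and 4279 ± 90.3 in M+NSPCC1 (SD, n = 4), and in CPM it was 14500 ± 172 CPM in Ctrl, 13210 ± 516 in Model and 12890 ± 142 in M+NSPCC1, where Ctrl and Model did not overlap. As a plain share of the estimated counts, the members held 1.347% ± 0.029 in Ctrl, 1.349% ± 0.059 in Model and 1.358% ± 0.019 in M+NSPCC1 (SD, n = 4). Single genes moved in both directions. In Model against Ctrl, 47 of the 118 tested genes rose and 57 fell (edgeR quasi-likelihood test, adjusted p under 0.05), so 88.1% passed, against a background of 90.5% of all 7638 genes tested. Rises made up 39.8% of the members against 49.1% of all genes, and falls 48.3% against 41.4%. The groups did not overlap in 96 members, or 81.4%, where the background was 83.1%. The median log2 fold change was -0.05 among the members and 0.25 among all genes, and the median absolute change 0.63 and 1.10.

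Small changes depended on how libraries were scaled. The median of all genes was 0.25 with TMM factors, 0.08 with DESeq2 size factors and 0.43 with the depth of the whole libraries. Only 26 members rose and 52 fell under all 3 scalings, and 14 members changed sign, among them Arf1, Rab11a, Atp6v1b2, Atp6v1c1 and Vps13b. The share of all genes that held under all 3 scalings is not given here. The excess of falls is therefore not read as particular to the members. With 1 library left out at a time, 9 members lost their call in Model: Snx8, Wipi2, Arf1, Vps13b and Rab11a in 3 or more of these fits, Atp6v1c1 without Ctrl 01 or Model 01, Atp6v0b without Ctrl 01 (adjusted p = 0.0655), Atp6v0d1 without Ctrl 02 (0.0616) and Rab44 without Model 02 (0.0511, in edgeR). Changes named below passed under all 3 scalings unless stated otherwise.

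**Figure D1:**
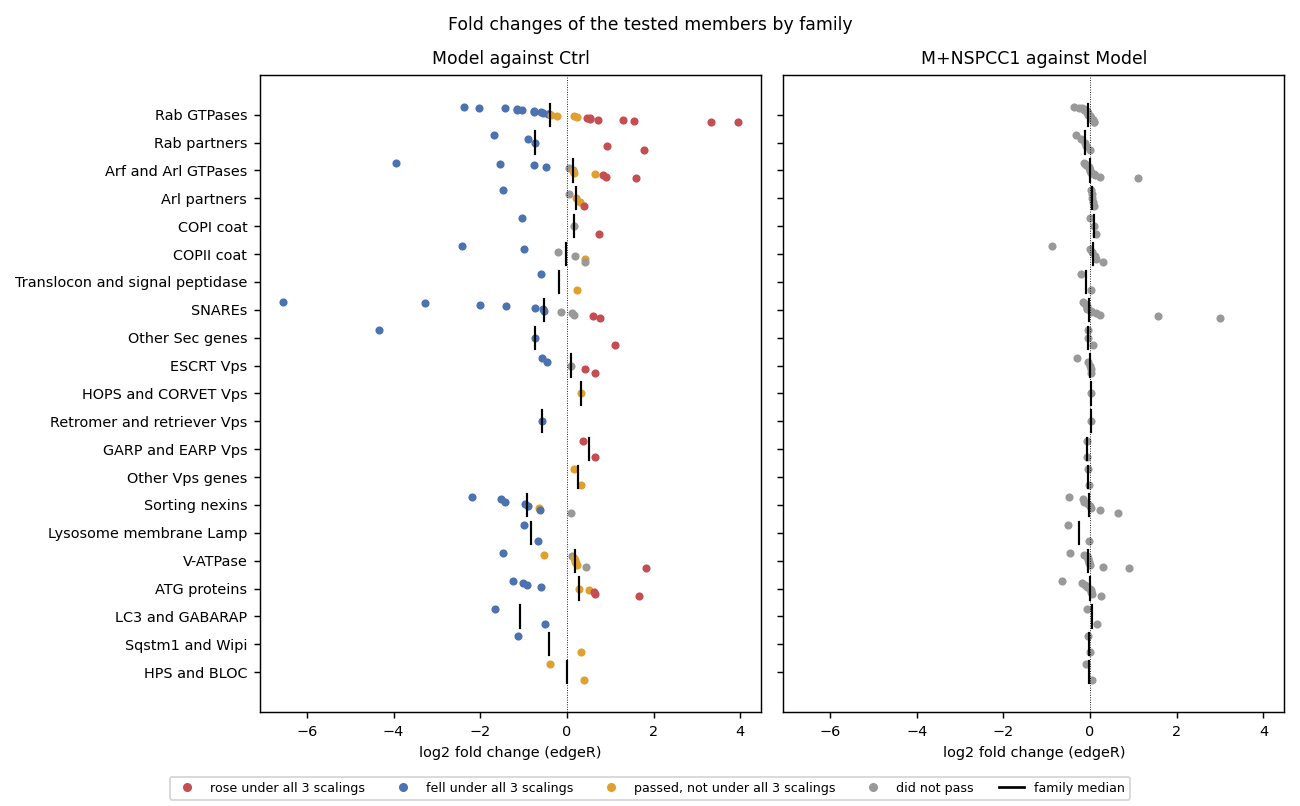
Log2 fold change of each tested gene (points) by family, for Model against Ctrl (left) and M+NSPCC1 against Model (right), with the family median as a black bar. Red and blue points rose or fell under all 3 scalings, orange points passed but not under all 3, and grey points did not pass. In Model the 7 of 8 sorting nexins that passed lie below 0 and the proton pump subunits cluster just above 0, while no gene passed in M+NSPCC1 against Model.

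Of all genes, 49.1% rose and 41.4% fell in Model, with a median of 0.25. Among the 24 tested Rab GTPases, 10 rose and 14 fell, 8 and 12 of them under all 3 scalings. Their median log2 fold change was -0.39. Among the falls were Rabs of early and late endosomes. Rab7, which marks late endosomes and directs them to lysosomes, stood at 677, 666, 704 and 709.9 CPM in the Ctrl libraries, 513, 477, 603 and 481 in Model and 532, 503, 470.3 and 458 in M+NSPCC1. Every Ctrl library lay above every Model library (log2 fold change -0.41, SE 0.09, adjusted p = 8.69e-04). Rab5b, a Rab of early endosomes, went from 246 ± 10.6 to 182 ± 21.9 CPM (SD, n = 4; log2 fold change -0.43). Rab3a and Rab3d, which serve regulated secretion, fell too, with log2 fold changes of -1.44 and -0.76. The largest fall among the Rabs was that of Rab28, a Rab linked to cilia, from 42.6 ± 5.44 to 8.17 ± 4.55 CPM (log2 fold change -2.38, SE 0.32, adjusted p = 3.51e-05), measured on 1 of its 5 curated RefSeq transcripts. Rab12 (-1.04), Rab43 (-1.15), Rab30 (-1.15) and the low Rab39 (-2.02, at 2.46 CPM in Ctrl) also fell.

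Other Rabs rose. Rab25, the Rab11 relative of epithelial cells that recycles receptors to the surface, had 76.2, 73.01, 86.95 and 89.8 CPM in the Ctrl libraries, 247, 279.7, 205 and 227 in Model and 216, 229, 259 and 249.8 in M+NSPCC1. The Ctrl libraries were all below the others (log2 fold change 1.56, SE 0.11, adjusted p = 2.89e-07). On the length-scaled level Rab25 went from 57.2 ± 5.71 FPKM in Ctrl to 191 ± 27.4 in Model, while Rab7 had 195 ± 6.82 and 166 ± 14.7 FPKM. Of the 3 epidermis markers in the tables, 2 rose and 1 fell, with sums of 6659 to 8916 CPM in Ctrl, 4550 to 8559 in Model and 4760 to 7469 in M+NSPCC1, and their part in the Rab25 result was not tested. Rab11a itself went from 269.5 ± 9.29 to 300.1 ± 19.9 CPM, a difference that passed with TMM factors (log2 fold change 0.16) and changed sign with DESeq2 size factors. Rab15, an endosomal Rab, stood at 6.75, 12.1, 3.97 and 6.58 CPM in the Ctrl libraries, 63.1, 55.2, 113 and 61.3 in Model and 48.6, 58.3, 80.4 and 69.1 in M+NSPCC1. It was low in all 4 Ctrl libraries and highest in Model 03 (log2 fold change 3.31, SE 0.34, adjusted p = 4.38e-06). Rab6a of the Golgi rose by 0.54 and Rab34 by 0.46 on the log2 scale. Rab10 (-0.23) and Rab8b (-0.37), which carry vesicles to the surface, passed downward with TMM factors but not under all 3 scalings.

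Rab27a, Rab32 and Rab38 serve melanosomes: Rab27a holds mature melanosomes on actin at the cell edge, while Rab32 and Rab38 deliver pigment enzymes to them. Rab27a had 2.54, 3.98, 0 and 0.108 CPM in the Ctrl libraries, 32.4, 22.5, 26.3 and 21.9 in Model and 13.02, 28.7, 26.8 and 25.4 in M+NSPCC1. The 4 Ctrl libraries were near 0 and below all others (log2 fold change 3.96, SE 0.76, adjusted p = 4.57e-04), and without Ctrl 02 the log2 fold change was 4.86. Its paralog Rab27b rose less, from 32.4 ± 1.802 to 46.8 ± 5.17 CPM (log2 fold change 0.53). Rab38 rose (0.72) and Rab32 fell (-0.75), so these paralogs passed in opposite directions. Outside the family names, all 7 tested genes of a melanosome traffic list rose, where 49.1% of all genes did. Among the 7 were Myo5a (0.61), the motor that Rab27a recruits, and its adaptor Mlph (1.49). The 9 measured melanocyte markers rose with them, none at 0 in all Ctrl libraries, and summed to 56.6 to 95.8 CPM in Ctrl, 1062 to 3078 in Model and 1935 to 3090 in M+NSPCC1, and their part in the Rab27a and Rab38 results was not tested. The BLOC1 subunits Bloc1s2 (0.38) and Bloc1s6 (-0.38), needed for melanosome biogenesis, passed in opposite directions with TMM factors, but not under all 3 scalings.

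Of the 5 Rab partners, 2 rose and 3 fell, where 49.1% of all genes rose and 41.4% fell. Rab3ip (Rabin8), the exchange factor that activates Rab8, had 23.1, 24.96, 24.7 and 22.2 CPM in the Ctrl libraries, 74.9, 107, 69.3 and 76.98 in Model and 53.4, 70.6, 84.98 and 73.5 in M+NSPCC1. All Ctrl libraries were below the rest (log2 fold change 1.79, SE 0.16, adjusted p = 1.68e-06). Its relative Rab3il1 went the other way, from 81.6 ± 3.87 to 25.5 ± 13.97 CPM (log2 fold change -1.68). Among the effectors that bind Rab11 and Rab25, Rab11fip2 rose (0.92), while Rab11fip3 (-0.73) and Rab11fip5 (-0.903) fell.

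Of the 12 Arf and Arl GTPases, 6 rose, 4 fell and 2 did not pass, where 49.1% of all genes rose and 41.4% fell. Under all 3 scalings, 3 of the 12 rose and 4 fell. Arf6, which controls recycling and actin at the plasma membrane, stood at 270.0, 261, 271 and 273 CPM in the Ctrl libraries, 516, 531, 417 and 447 in Model and 443, 484, 484 and 474 in M+NSPCC1. The Ctrl libraries were tight and below all others (log2 fold change 0.83, SE 0.08, adjusted p = 3.17e-06). Arf1, the Golgi GTPase that recruits COPI and the most abundant of the family at 252 ± 10.3 FPKM in Ctrl and 315 ± 12.7 in Model, passed with TMM factors only narrowly (log2 fold change 0.15, adjusted p = 0.0425) and was at -0.02 with DESeq2 size factors. Arl15 rose by 1.596 and Arl5b, of the Golgi, by 0.89. Arl3, which releases lipid-bearing cargo in cilia, had 16.3, 22.3, 21.4 and 21.5 CPM in the Ctrl libraries, 2.18, 0.927, 1.98 and 0.186 in Model and 4.03, 3.34, 0.911 and 3.11 in M+NSPCC1. All Ctrl libraries were above the others (log2 fold change -3.94, SE 0.59, adjusted p = 7.44e-05), on 1 of 2 curated transcripts. Arl13b, its activator, had a log2 fold change of 0.66, which passed with TMM factors but not under all 3 scalings. Arl8a, which moves lysosomes outward along microtubules, fell (-0.48), as did Arl2 (-0.76) and Arl11 (-1.55, or -2.28 without Model 03). Among the Arl partners, Arl6ip6 rose (0.39), Arl6ip1 passed upward but not under all 3 scalings (0.29), and Arl6ip5, a membrane protein of the endoplasmic reticulum, fell from 356 ± 29.7 to 128 ± 19.5 CPM (log2 fold change -1.48, SE 0.11, adjusted p = 4.29e-07).

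The coats of the early secretory route changed subunit by subunit. In COPI, Copg2 rose (0.74), Copz2 fell (-1.03) and Copb2 did not pass (0.16). In COPII, the inner coat subunit Sec23a had 120.2, 139, 146 and 161 CPM in the Ctrl libraries, 80.4, 56.8, 89.1 and 57.5 in Model and 78.6, 80.6, 70.05 and 80.7 in M+NSPCC1. Each Ctrl library was above all Model libraries (log2 fold change -0.996, SE 0.15, adjusted p = 7.25e-05). Its paralog Sec23b did not pass (0.43). The outer coat subunit Sec31b fell from 25.3 ± 4.03 to 4.68 ± 1.33 CPM (log2 fold change -2.43), and the main form Sec31a did not pass (-0.22), with values from 13.8 to 83.4 CPM inside Model. Cargo receptors and other factors of the same step, from a separate list, mostly fell. Of 16 tested, 11 fell and 2 rose (5 with whole-library depth), where 41.4% of all genes fell and 49.1% rose. Their median was -0.64 against 0.25 for all genes. The list includes the COPII GTPase Sar1b (-1.404), the cargo receptor Lman1 (-0.91) and the collagen export factor Mia3 (-0.44). Fibroblast markers, makers of much secreted matrix, fell in 5 of 5, none at 0 in all Ctrl libraries, and summed to 10550 to 13080 CPM in Ctrl, 3593 to 9040 in Model and 5151 to 6713 in M+NSPCC1. Their part in these falls was not tested. The pore of the translocon, through which new proteins enter the endoplasmic reticulum, was split, with Sec61a2 lower (-0.599) and Sec61a1 higher with TMM factors (0.24) and with whole-library depth (0.42), but not passing with DESeq2 size factors (0.07).

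Of the 12 SNAREs, 2 rose, 7 fell and 3 did not pass, with a median log2 fold change of -0.54 against 0.25 for all genes. Rises made up 49.1% of all genes and falls 41.4%. Several SNAREs of the plasma membrane fell. Stx4a, which receives secretory vesicles there, had 182, 174, 183 and 183 CPM in the Ctrl libraries, 105, 102, 129 and 99.3 in Model and 118, 112, 101 and 109.6 in M+NSPCC1. Ctrl and Model did not overlap (log2 fold change -0.73, SE 0.09, adjusted p = 1.13e-05). Stx2 (-1.404), Vamp2 (-0.53) and Vamp5 (-2.01), a SNARE best known from muscle, fell too. Snap23, the partner of Stx4 outside neurons, is represented by 1 of its 3 curated transcripts, which had 23.2, 15.6, 8.27 and 11.8 CPM in the Ctrl libraries, 0, 0, 0.595 and 0 in Model and 1.19, 2.32, 0 and 1.42 in M+NSPCC1. It was at 0 in 3 Model libraries, and its fitted log2 fold change of -6.56 (adjusted p = 2.61e-04) was -10.23 without Model 03, where all Model values are 0 and the fitted value is no bound. Vamp1 also fell (fitted log2 fold change -3.27, or -3.901 without Model 03), with 0 in 2 Model libraries. Stx6, which works between the trans-Golgi and endosomes, had 96.0, 103, 91.9 and 91.1 CPM in the Ctrl libraries, 144, 156, 129 and 149 in Model and 133, 137, 137 and 142 in M+NSPCC1. Its Ctrl libraries were all below the others (log2 fold change 0.598, SE 0.07, adjusted p = 1.31e-05). Stx3, the SNARE of apical membranes, rose by 0.77 on the log2 scale. Sec22a, a SNARE of the early secretory route, did not pass (0.12).

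The lipid-binding Sec14-like genes share a symbol root with the Sec genes without being coat proteins. Sec14l5 had 90.6, 104, 97.7 and 92.6 CPM in the Ctrl libraries, 4.83, 2.502, 7.84 and 3.82 in Model and 5.04, 5.099, 3.37 and 4.79 in M+NSPCC1. Ctrl and Model were far apart (log2 fold change -4.34, SE 0.28, adjusted p = 1.65e-07). Sec14l1 fell (-0.74) and Sec14l2 rose (1.102). Muscle markers, given above, dropped in the same libraries, and their part in the falls of Sec14l5 and Vamp5 was not tested.

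Sorting nexins were mostly lower. All 8 sorting nexins were tested, 7 fell, 6 of them under all 3 scalings, and none rose. Over all genes, 41.4% fell and 49.1% rose. The sorting nexin median was -0.93 against 0.25 for all genes. Snx5, a membrane-bending partner of retromer, had 195, 175, 185 and 146 CPM in the Ctrl libraries, 81.6, 82.4, 115 and 78.3 in Model and 69.9, 78.7, 91.8 and 76.6 in M+NSPCC1. Ctrl lay above the rest in every library (log2 fold change -0.97, SE 0.14, adjusted p = 5.09e-05). Snx2, of the same complex, fell by less, from 305 ± 45.5 to 198 ± 28.9 CPM (log2 fold change -0.62), and Snx14 (-1.51), Snx20 (-1.43) and Snx21 (-0.89) are rarer. Snx24 (-2.18, or -3.32 without Model 02) was rare, with 2.101, 2.21, 1.93 and 2.05 CPM in Ctrl and 0.189, 1.205, 0.198 and 0.186 in Model. Snx8 (-0.65) narrowly passed with TMM factors, not under all 3 scalings, and in 11 of the 12 fits that left out 1 library it did not pass (adjusted p up to 0.117 in edgeR). Snx4 did not pass (0.08). Vps26c, of the retriever complex that recycles integrins, fell as well (-0.58).

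Of the 5 Vps genes of the ESCRT route, 2 rose, 2 fell and 1 did not pass, where 49.1% of all genes rose and 41.4% fell. In ESCRT-II, which helps form multivesicular bodies, Vps36 rose from 109 ± 2.94 to 169.6 ± 17.4 CPM (log2 fold change 0.64) and Vps25 did not pass (0.08). Vps37a of ESCRT-I fell (-0.57). The ATPases that take the ESCRT coat apart moved in opposite directions. Vps4b had 168, 158, 175 and 160.2 CPM in the Ctrl libraries, 219, 218, 219 and 223 in Model and 219, 223, 218 and 226 in M+NSPCC1. Its level rose without overlap (log2 fold change 0.41, SE 0.05, adjusted p = 2.36e-05), while Vps4a fell (-0.46). Among other ESCRT genes, 5 of 9 tested rose, 1 fell and 3 did not pass, led by Chmp4c (1.56) and Ist1 (1.04), with Chmp7 lower (-0.43), and only 2 rose with DESeq2 size factors. The tethers that receive endosome vesicles at the Golgi, Vps53 (0.37) and Vps54 (0.64), rose. Vps16 of the HOPS tether passed with TMM factors but not under all 3 scalings (0.32), and so did Vps72 (0.33), which carries the symbol but belongs to a chromatin complex.

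Lysosome genes were mostly lower. Lamp1, a major glycoprotein of the lysosomal membrane (chr8:13159161-13175338 in mm10), had the highest length-scaled level of all members in Ctrl, 395 ± 22.9 FPKM, and 281 ± 30.4 FPKM in Model. Its scaled counts were 1557, 1399, 1482 and 1356 CPM in the Ctrl libraries, 912, 817, 1082 and 842 in Model and 861, 978, 896 and 853 in M+NSPCC1. No Model library reached the lowest Ctrl library (log2 fold change -0.67, SE 0.10, adjusted p = 7.32e-05). Lamp2, on 1 of 4 curated transcripts and at low counts, fell too (-0.99). Over all genes, 41.4% fell and 49.1% rose with TMM factors, with a median of 0.25. Of 24 tested lysosomal hydrolases and membrane proteins from a separate list, 22 fell and 2 rose under each of the 3 scalings. The median of this list was -0.92. Among those that fell were Hexa (-1.49), Gaa (-1.46), which degrades glycogen, Psap (-0.87) and the protease Ctsd (-0.41), and the 2 that rose were the galactosidase Gla (0.701) and the cholesterol transporter Npc1 (0.82). Macrophages are rich in lysosomes, and the 7 macrophage markers all fell, none at 0 in all Ctrl libraries, with sums of 3761 to 5325 CPM in Ctrl, 726 to 2074 in Model and 806 to 1489 in M+NSPCC1. Among the Model libraries, Model 03 had the highest macrophage sum and the highest Lamp1. It also had the highest sums of muscle, fibroblast, endothelial, sebocyte, adipocyte, nerve and epidermis markers. The part of any of these cell types in the falls was not tested.

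The proton pump that acidifies lysosomes had mostly small positive changes. Of its 10 tested subunits, 6 rose, 2 fell and 2 did not pass with TMM factors, while 49.1% of all genes rose and 41.4% fell. The median was 0.19 against 0.25 for all genes. These rises were small and only 1 rise and 1 fall held under all 3 scalings. There the median ranged from 0.01 to 0.36, against 0.08 to 0.43 for all genes, so no rise of the pump beyond that background is read. Atp6v1g1, the most abundant subunit at 175 ± 3.25 FPKM in Ctrl, had 263, 252, 267 and 258 CPM in the Ctrl libraries, 281, 315, 310.1 and 276 in Model and 266, 289, 292 and 298 in M+NSPCC1. Ctrl lay just below Model without overlap, and the log2 fold change of 0.19 with TMM factors was 0.01 with DESeq2 size factors. The rise that held was that of Atp6v0d2, a membrane-sector isoform known from osteoclasts and macrophages, from 5.32 ± 1.61 to 18.9 ± 4.95 CPM (log2 fold change 1.83), and the fall was that of Atp6v0e2 (-1.47). Atp6v1d (0.23) and Atp6v1h (0.198) of the catalytic sector passed with TMM factors but not under all 3 scalings, and Atp6v1b1, the kidney isoform, did not pass in Model (0.43). Against Ctrl, M+NSPCC1 had a log2 fold change of 1.33 for Atp6v1b1, or 1.95 without Ctrl 03. This change passed with TMM factors and with whole-library depth, but not with DESeq2 size factors (1.17). The call was also lost with 5 other libraries left out in turn (adjusted p up to 0.102 in edgeR). Summed over the 10 subunits, the length-scaled level was 504 ± 13.7 FPKM in Ctrl, 624 ± 20.01 in Model and 613 ± 27.3 in M+NSPCC1, and the sum in CPM was 1246 ± 41.4 CPM in Ctrl, 1369 ± 60.7 in Model and 1306 ± 26.5 in M+NSPCC1.

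Promoter sequence was read for the members because TFEB and its relatives, activators of many lysosome and autophagy genes, bind the E-box CACGTG and its longer form TCACGTGA, which contains the E-box. Promoters of 99 members were found in RefSeq's table (GRCm38.p6), and the 250 bases before the start were searched on both strands. The E-box was present in 15 of the 99 members (15.2%) against 6.86% of the 27025 genes with a promoter in the table, and the longer form in 4 (4.04%) against 0.907%. This background holds every annotated gene with a promoter, also genes not among those deposited. It was not matched to the members for expression or base composition, so the difference is not read as particular to them. In Model, the E-box was in 5 of the 35 matched members that rose, 8 of the 48 that fell and 1 of the 13 that did not pass. Hps5, which also has it, was not tested. No link between motif and direction is read from these counts. A related motif of the pigment cell regulator MITF, CATGTG, was in 9 members (9.09%) against 13.8% of all genes.

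The following promoters are shown because they hold several E-boxes next to the start of a lysosome gene, Lamp1 and the pump subunit Atp6v0b, or belong to the pigment Rab, Rab27a, at its second start. Capitals mark the E-box, and each run is the 250 bases before the start in GRCm38.p6, 5′ to 3′.
Lamp1 (chr8:13158911-13159160, plus strand): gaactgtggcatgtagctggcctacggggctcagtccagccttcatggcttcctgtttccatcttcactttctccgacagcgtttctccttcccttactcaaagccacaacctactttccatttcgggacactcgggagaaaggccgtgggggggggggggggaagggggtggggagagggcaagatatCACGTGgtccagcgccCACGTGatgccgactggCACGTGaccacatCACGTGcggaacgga
Atp6v0b (chr4:117887330-117887579, minus strand): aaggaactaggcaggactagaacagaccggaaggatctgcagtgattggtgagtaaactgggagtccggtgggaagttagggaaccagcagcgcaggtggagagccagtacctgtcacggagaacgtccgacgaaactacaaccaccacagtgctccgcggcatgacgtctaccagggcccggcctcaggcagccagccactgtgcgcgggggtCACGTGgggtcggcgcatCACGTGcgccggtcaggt
Rab27a (chr9:73063898-73064147, plus strand): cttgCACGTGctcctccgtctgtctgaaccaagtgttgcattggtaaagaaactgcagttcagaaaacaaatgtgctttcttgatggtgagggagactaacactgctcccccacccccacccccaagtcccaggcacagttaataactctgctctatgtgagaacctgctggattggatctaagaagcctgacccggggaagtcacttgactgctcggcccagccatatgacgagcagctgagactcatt
Lamp1 had 4 copies between 61 and 15 bases before the start and Atp6v0b had 2. Both genes had a negative log2 fold change in Model (-0.67 and -0.52, the latter not passing under all 3 scalings), and Rab27a, with 1 copy 246 bases before the start, rose.

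The 4 members with the longer form are shown as 100 bases of promoter each, with that motif in capitals.
Vps16 (chr2:130424220-130424319, plus strand): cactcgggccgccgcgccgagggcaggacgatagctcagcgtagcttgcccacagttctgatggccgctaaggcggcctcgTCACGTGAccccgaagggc
Stx6 (chr1:155158571-155158670, plus strand): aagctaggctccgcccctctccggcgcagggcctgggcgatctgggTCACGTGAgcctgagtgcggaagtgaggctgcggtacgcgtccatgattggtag
Sec23ip (chr7:128744770-128744869, plus strand): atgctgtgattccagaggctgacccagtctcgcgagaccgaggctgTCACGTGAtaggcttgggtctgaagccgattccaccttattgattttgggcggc
Arl2 (chr19:6141153-6141252, minus strand): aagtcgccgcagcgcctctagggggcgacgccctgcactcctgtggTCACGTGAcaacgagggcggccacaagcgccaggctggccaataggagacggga
Stx6 rose under all 3 scalings, Vps16 (0.32) and Sec23ip (0.41) passed upward with TMM factors, and Arl2 fell. A match is a stretch of letters, not a measured binding site. The Tfeb gene itself did not pass (log2 fold change -0.39).

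**Figure D2:**
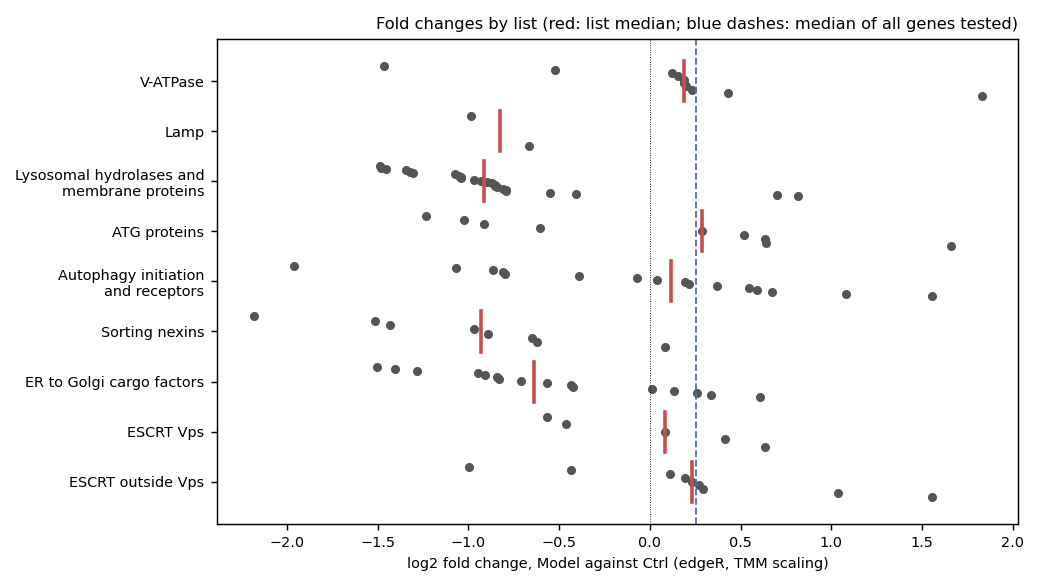
Log2 fold change in Model against Ctrl (edgeR, TMM scaling) for members and for separate lists of related genes, one point per gene, with list medians in red and the median of all genes tested, 0.25, as blue dashes. Lysosomal hydrolases and membrane proteins, Lamp and sorting nexins lie mostly below 0, and most proton pump subunits lie close to the dashes.

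Genes of autophagy were divided. Sqstm1 (p62), the receptor that carries ubiquitin-tagged cargo into autophagosomes, had 689, 677, 637 and 766 CPM in the Ctrl libraries, 321, 276, 394 and 274 in Model and 321, 322, 302 and 282 in M+NSPCC1. Ctrl libraries were at least 1.5 times above every other library (log2 fold change -1.13, SE 0.12, adjusted p = 4.34e-06). Map1lc3a, one of the LC3 proteins that coat the autophagosome, stood at 328, 361, 347 and 343 CPM in the Ctrl libraries, 221, 236, 293 and 219.9 in Model and 254, 223, 225 and 224 in M+NSPCC1. It was lower in all Model libraries, least so in Model 03 (log2 fold change -0.51, SE 0.09, adjusted p = 3.73e-04). Map1lc3b, on 1 of 2 curated transcripts and below 12 CPM in every library, fell as well (log2 fold change -1.66). Among the Model libraries, Sqstm1 and Map1lc3a were highest in Model 03. As given above, that library had the highest sums of several marker lists, muscle and macrophage among them, and the lowest of others. The part of any cell type in these falls was not tested. Of the 9 Atg genes, 5 rose and 4 fell, and 3 and 4 did so under all 3 scalings. Over all genes, 49.1% rose and 41.4% fell with TMM factors.

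The membrane protein Atg9, which seeds the autophagosome, has a ubiquitous and a tissue-restricted form, and these moved in opposite directions. Atg9a, the ubiquitous one, had 142, 161, 147 and 155 CPM in the Ctrl libraries, 77.6, 69.04, 77.4 and 73.5 in Model and 85.3, 68.3, 74.8 and 67.8 in M+NSPCC1. Its Ctrl values were well above the rest (log2 fold change -1.02, SE 0.08, adjusted p = 8.49e-07). Atg9b had 77.9, 67.5, 43.7 and 59.04 CPM in the Ctrl libraries, 144, 200.3, 219 and 220.0 in Model and 114, 126, 140.4 and 122 in M+NSPCC1. It was lowest in Ctrl and highest in Model (log2 fold change 1.66, SE 0.18, adjusted p = 6.00e-06). Further rises were those of Atg2b (0.64), which passes lipids into the growing membrane, and the LC3-processing protease Atg4b (0.63), and falls those of Atg16l2 (-1.23), the conjugation enzyme Atg10 (-0.91) and Atg4a (-0.605). Atg16l1 (0.52), Atg101 (0.29) and Wipi2 (0.32) passed with TMM factors but not under all 3 scalings. Of 16 tested initiation factors and receptors from a separate list, 7 rose, 4 fell and 5 did not pass, or 5 and 6 with DESeq2 size factors. They include the kinases Ulk1 (0.59) and Ulk2 (-0.87), Trp53inp1 (1.55) and Trp53inp2 (-1.07), and the regulator Rubcn (-1.96).

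**Figure D3:**
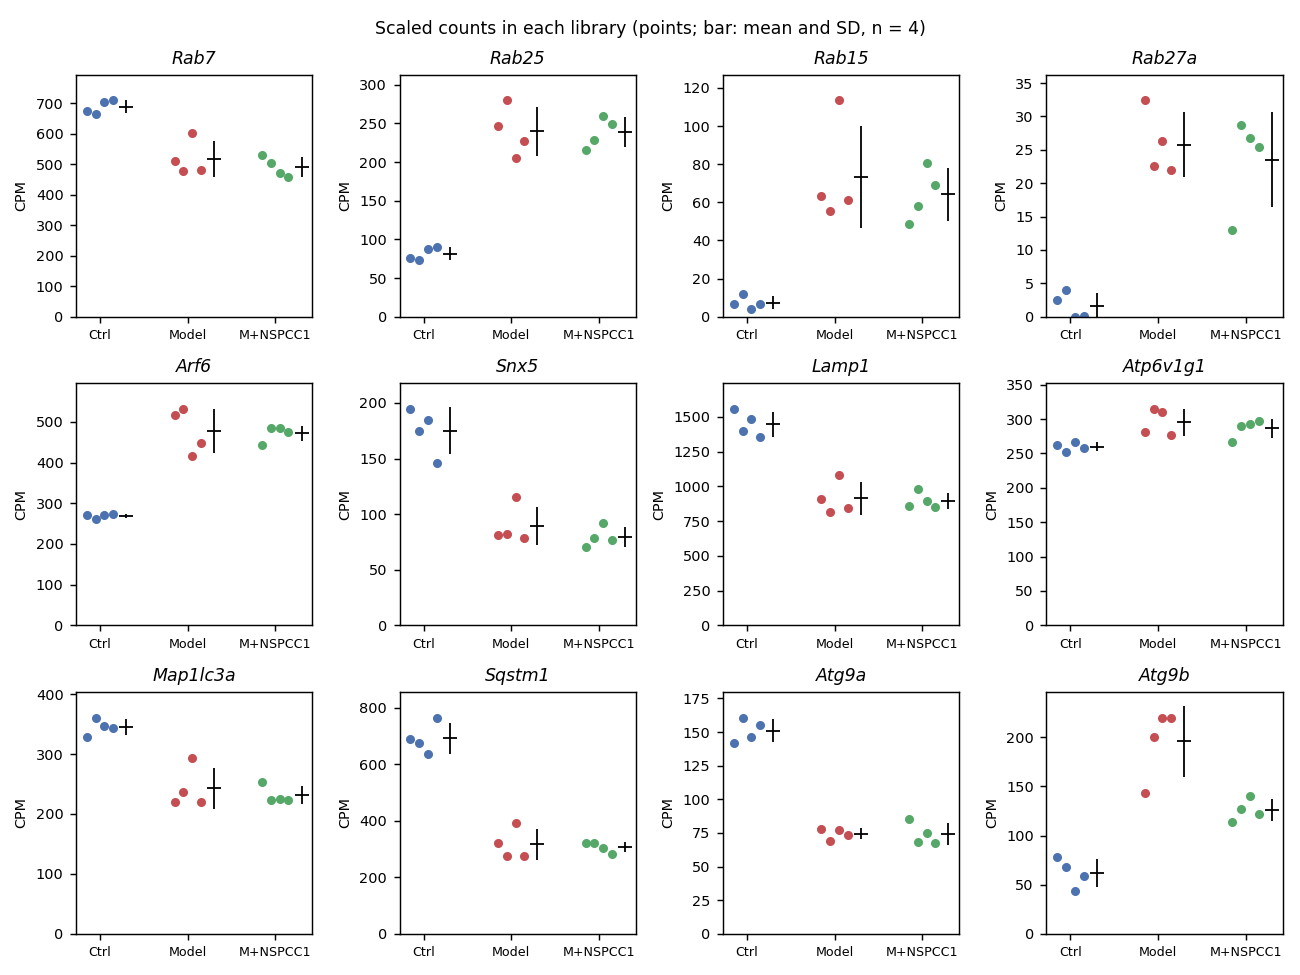
Scaled counts (CPM, vertical axis from 0) of 12 members in each library of Ctrl, Model and M+NSPCC1 (points), with the group mean and SD (bars, n = 4). Rab25, Rab15, Rab27a, Arf6 and Atg9b are higher in Model than in Ctrl and Rab7, Snx5, Lamp1, Map1lc3a, Sqstm1 and Atg9a lower, and the M+NSPCC1 points lie near those of Model except in Atg9b.

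In many paralog pairs the balance differed between Ctrl and Model. For 21 pairs of paralogs, the share of the first gene in the summed FPKM of the pair was taken. It did not overlap between Ctrl and Model in 19 pairs. In 10 pairs one gene rose and the other fell, 7 of them under all 3 scalings. The pairs are not independent. Sec14l1, Sec14l2 and Sec14l5 were paired in every combination, and so were Rab11fip2, Rab11fip3 and Rab11fip5. Among all genes, 83.1% did not overlap in CPM, 49.1% rose and 41.4% fell. That background is of single genes, not of shares within pairs. Nothing particular to paralogs is read from these counts. Shares within a pair do not depend on library scaling. Atg9a made up 71.4% ± 5.13 in Ctrl, 28.2% ± 4.76 in Model and 37.4% ± 3.84 in M+NSPCC1 of the Atg9 pair (SD, n = 4). Among the listed transcripts, most of the pair was therefore Atg9a in Ctrl and Atg9b in both other groups. Shares cover listed transcripts only, and curated ones that are missing could move them. Atg9a has 2 listed against 4 curated, Rab27a 1 against 3 and Rab27b 1 against 4. Atg9b, Vps4a and Vps4b have 1 listed and 1 curated each. The share of Atg4a in the Atg4 pair was 44.8% ± 2.73 in Ctrl, 25.7% ± 3.72 in Model and 25.7% ± 2.23 in M+NSPCC1. Vps4a held 56.1% ± 2.79 in Ctrl, 41.1% ± 2.12 in Model and 41.1% ± 0.559 in M+NSPCC1 of the Vps4 pair. Rab27a held 9.64% ± 11.2 in Ctrl, 57.5% ± 4.096 in Model and 52.7% ± 10.9 in M+NSPCC1 of the Rab27 pair. For the Rab11 effectors, Rab11fip2 held 27.9% ± 2.33 in Ctrl, 54.9% ± 4.25 in Model and 51.1% ± 3.13 in M+NSPCC1 of its sum with Rab11fip3. In none of the 21 pairs did the shares of M+NSPCC1 and Model separate.

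**Figure D4:**
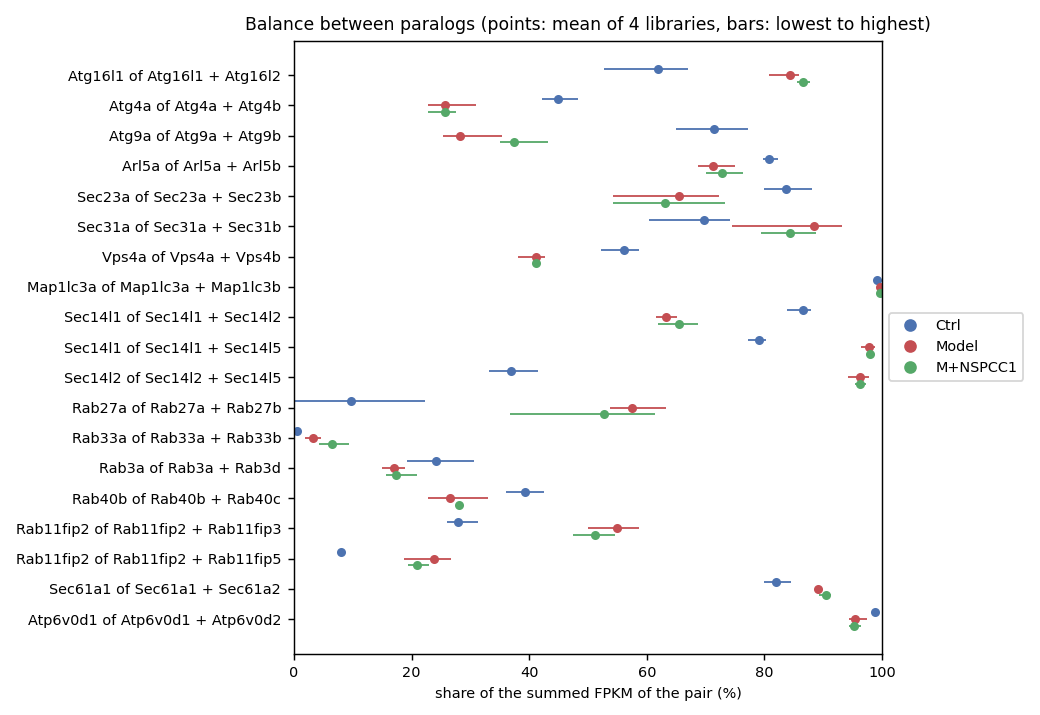
Share of the first gene in the summed FPKM of each paralog pair (horizontal axis, %), as the mean of 4 libraries with bars from the lowest to the highest, for the 19 pairs in which Ctrl and Model did not overlap. Atg9a falls from 71.4% in Ctrl to 28.2% in Model, and in every pair the M+NSPCC1 range meets the Model range.

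A gene's sum can hide its transcripts. In Stx16, a SNARE of the trans-Golgi, the sum did not pass (log2 fold change -0.13), while one transcript went from 24.02 ± 7.501 to 49.3 ± 8.42 CPM (log2 fold change 1.07, adjusted p = 6.56e-04) and another from 47.6 ± 7.06 to 17.7 ± 10.6 CPM (log2 fold change -1.395, adjusted p = 0.00301). Arl2bp, which binds Arl2 and Arl3, had one transcript going from 80.9 ± 3.53 to 116 ± 10.5 CPM (log2 fold change 0.55, adjusted p = 6.94e-05) and another from 23.7 ± 4.37 to 4.87 ± 3.33 CPM (log2 fold change -2.25, adjusted p = 0.0185). Such estimates divide shared reads between transcripts, so these opposite moves carry the uncertainty of that division.

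The comparison of M+NSPCC1 with Model asks whether the extract shifts these genes in the ageing model. None of the 118 tested members passed in edgeR, where the background was 0.0% of all genes tested, and none passed in DESeq2 or limma, where the backgrounds were 0.959% and 0.0%. Outside the members, DESeq2 called 3 genes of the separate lists lower in M+NSPCC1, Foxo3 and Stbd1 of the autophagy list and Mreg of the melanosome list (log2 fold changes -0.296, -1.01 and -0.304), which did not pass in edgeR (adjusted p = 0.36 each). Before adjustment, a p under 0.05 was found in 7 members, 5.93% against 6.57% of all genes, and the groups did not overlap in 4, or 3.39% against 4.19%. The members' differences were small, with a median absolute log2 fold change of 0.07, and in 91 of 118 the 95% interval lay within a 1.5-fold change either way. For Lamp1 (log2 fold change -0.03, 95% interval -0.24 to 0.19), Sqstm1 (log2 fold change -0.04, 95% interval -0.29 to 0.21) and Atg9a (log2 fold change -0.01, 95% interval -0.19 to 0.18) the intervals are narrow around 0. For Rab27a (log2 fold change -0.13, 95% interval -1.52 to 1.25) the interval is wide, and its values of 13.02, 28.7, 26.8 and 25.4 CPM in M+NSPCC1 include 1 low library.

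The smallest p among the members belonged to Atg9b, whose per-library values are given above. Its 4 M+NSPCC1 values lay below all 4 Model values and above all Ctrl values (log2 fold change -0.64, SE 0.17, unadjusted p = 0.00332, adjusted p = 0.456), so it did not pass the adjustment over all genes. Rab11fip2 was also lower in M+NSPCC1, at 32.1, 37.9, 30.97 and 33.4 CPM against 46.2, 43.1, 37.8 and 42.5 in Model, with overlap at the edge (log2 fold change -0.34, SE 0.10, unadjusted p = 0.00707, adjusted p = 0.548). The next lower was Atp6v0b, with 18.1, 19.5, 14.4 and 11.7 CPM against 19.5, 22.4, 23.3 and 22.3 in Model (log2 fold change -0.46, adjusted p = 0.684 in edgeR). On the higher side, the smallest p were those of Snap23 (fitted log2 fold change 2.99, from counts at or near 0 in Model), Atp6v0e2 (0.29) and Arl3 (1.11), with adjusted p from 0.676 to 0.800 in edgeR. Hair shaft markers had a median log2 fold change of -0.67 in this comparison and muscle markers 0.56, none passing.

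M+NSPCC1 against Ctrl shares its Ctrl libraries with the first comparison, so the values are given side by side and not as a second finding. In it, 44 members rose and 56 fell, 84.7% of those tested, against a background of 93.2% of all genes (edgeR), with 50.1% of all genes higher and 43.1% lower. Of the members, 30 rose and 54 fell under all 3 scalings, a count for which no share of all genes is given. The groups did not overlap in 100 members, against 90.0% of all genes, and 93.5% of all genes had an unadjusted p under 0.05, against 87.3% of the members. Rab27a was at log2 fold changes of 3.96 in Model and 3.82 in M+NSPCC1 against Ctrl (4.73 without Ctrl 02). Rab25 was at 1.56 and 1.55, and Sec14l5 at -4.34 and -4.39. Lamp1 was at -0.67 and -0.69, and Sqstm1 at -1.13 and -1.17. Atg9b was at 1.66 and 1.02. With 1 library left out at a time, 8 members lost their call in this comparison: Atp6v1b1, Atp6v1d, Copb2, Rab11a, Rab40c, Sec22a, Sec23b and Snx24. Sec31a, which did not pass in Model (-0.22), passed against Ctrl in M+NSPCC1 (-1.09), and the direct comparison of the 2 groups did not pass (-0.87, adjusted p = 0.743 in edgeR).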

How the data were processed

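Per the labels' protocols, RNA was extracted from skin with TRIzol and made into messenger RNA libraries. The authors deposited estimated counts and FPKM per transcript and library. Listed in the submitters' processing notes, without roles, are the genome build mm10 and the tools RSEM 1.3.1, HISAT2 2.2.1 and DESeq2 1.34.0. The selection of the deposited transcripts is described in no label.

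Estimated counts were summed per gene and rounded. Sums were whole numbers in 39 of 121 members, and 52 members have fewer transcripts in the tables than curated RefSeq transcripts, so values describe the listed transcripts. Groups follow the sample titles. The test was edgeR 4.0.16 (R 4.3.3, quasi-likelihood, TMM factors, default filter) on all 12 libraries together. Benjamini-Hochberg adjustment covered all 7638 genes tested, with a threshold of 0.05. The code was first run on simulated data in which few genes changed, equally in both directions. That check does not cover scaling where most genes differ, as they do here. CPM used the same TMM factors. Alternatives were DESeq2 1.42.0, limma 3.58.1 on log2(FPKM + 1) with a mean FPKM of at least 0.5, other scalings and filters, a 1.5-fold null, single transcripts, and each library left out.

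The members and gene lists were chosen with earlier results of these data known. Named genes were, per family and comparison with Ctrl, up to 3 passing genes per direction with the largest change and a mean of at least 1 CPM, for M+NSPCC1 against Model the 3 per direction with the smallest p, and a fixed set of 50 genes, 26 of them tested. Other genes named were chosen after their values were seen. Paralog pairs leave out subunits and binding proteins that share only a symbol root.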

Additional observations from a re-analysis of the deposited data

Results flagged for a closer look

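In groups of 4 libraries, a single library stood far from the other 3 in 13 of 261 groups of values examined (87 named genes in 3 groups), by Dixon's test. Chance alone flags about 1 in 20 groups. Library Model 03 was the one apart in 7 of the 13.

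High in Model 03 were Rab15 (113 CPM in Model 03 against 55.2 to 63.1 in the other 3 Model libraries), Vamp5 (13.2 CPM in Model 03 against 6.62 to 7.69 in the other 3 Model libraries), Atp6v1b2 (346 CPM in Model 03 against 314 to 318 in the other 3 Model libraries), Rab39 (0.992 CPM in Model 03 against 0.463 to 0.473 in the other 3 Model libraries) and Snap23 (0.595 CPM against 0 in each of the other 3 Model libraries). Low in it were Arl5b (107 CPM in Model 03 against 128 to 129.5 in the other 3 Model libraries) and Atg16l1 (36.3 CPM in Model 03 against 49.3 to 50.4 in the other 3 Model libraries). The same library had the highest sums of the Model group for several marker lists, macrophage and muscle among them, and their part in these values was not tested.

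In other libraries, Arl3 was low (16.3 CPM in Ctrl 01 against 21.4 to 22.3 in the other 3 Ctrl libraries), as were Arl8a (84.1 CPM in Ctrl 04 against 90.3 to 91.5 in the other 3 Ctrl libraries) and Atg16l2 (5.59 CPM in Model 04 against 5.75 to 5.78 in the other 3 Model libraries). Map1lc3a was high (254 CPM in M+NSPCC1 01 against 223 to 225 in the other 3 M+NSPCC1 libraries), as were Rab3il1 (87.4 CPM in Ctrl 03 against 78.97 to 80.2 in the other 3 Ctrl libraries) and Snx24 (1.21 CPM in Model 02 against 0.186 to 0.198 in the other 3 Model libraries).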

How the results depend on the processing

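With a fold change of 1.5 as the null, 48 members passed in Model against Ctrl (14 rose, 34 fell) and 46 in M+NSPCC1 against Ctrl (12 rose, 34 fell). The share of all genes passing in this and the following settings is not given here. The counts are therefore not read as particular to the members. The rises in Model numbered 26 with DESeq2 size factors and 27 with DESeq2, against 56 with the depth of whole libraries or with limma on FPKM, while falls stayed between 51 and 57 in these settings. With each library left out in turn, 99 to 104 members passed in Model and 96 to 111 in M+NSPCC1 against Ctrl. No member passed in M+NSPCC1 against Model in any setting run. With the replicate number as a block, 100 members passed in Model (44 rose, 56 fell), 100 in M+NSPCC1 against Ctrl, and 0 in M+NSPCC1 against Model. Deviations from the group means had correlations from -0.16 to 0.12 between libraries of the same number. Between libraries of different numbers they ranged from -0.15 to 0.19. No shared deviation by number is seen, but a weak pairing could be missed by this check.

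Signs turned for small changes. In Model, with DESeq2 size factors and with DESeq2, Arf1 was at -0.025 in both, Atp6v1b2 at -0.048 in both, Rab11a at -0.016 in both, and Vps13b at -0.0032 and -0.0027. In M+NSPCC1 against Ctrl, Arf1 was at -0.024 in both. There, Atp6v1b2 was at 0.196 with whole-library depth, 0.031 with only the 8 libraries compared, 0.19 with limma (0.197 with a pseudocount of 0.1), and -0.050 to 0.024 with libraries left out.

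In M+NSPCC1 against Model, all sign changes were of values near 0 that did not pass. With DESeq2 size factors and DESeq2, Arf1 was at 7.86e-04 and 7.72e-04, Atg9a at 0.0057 and 0.0060, and Rab25 at 0.0095 and 0.0094. With whole-library depth, Arf1 was at 0.026, Arf6 at 0.017, Atg9a at 0.032, Lamp1 at 0.016 and Rab25 at 0.032. With limma, at a pseudocount of 1 and of 0.1, Arf1 and Arf6 were at 0.025, Lamp1 at 0.019, Rab25 at 0.034, Atg9a at 0.026 and 0.027, and Sqstm1 at 0.0088 and 0.0089. With libraries left out, the ranges were -0.027 to 0.018 for Arf1, -0.080 to 0.041 for Arf6, -0.061 to 0.11 for Atg16l1, -0.081 to 0.034 for Atg9a, -0.069 to 0.066 for Lamp1, -0.12 to 0.035 for Map1lc3a, -0.015 to 0.29 for Map1lc3b, -0.029 to 0.035 for Rab11a, and -0.074 to 0.083 for Rab25, -0.25 to 0.066 for Rab27a, -0.203 to 0.063 for Rab32, -0.088 to 0.023 for Rab38, -0.091 to 0.031 for Rab5b, -0.12 to 0.0011 for Rab7, -0.017 to 0.036 for Sec61a1 and -0.105 to 0.080 for Sqstm1. The cause was not tested. Depth limits the members near 0, such as Snap23, Arl3 and Snx24.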
